A study of Mus musculus with 52 samples.

Results

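The STING pathway senses DNA in the cytosol and turns it into interferon and NF-κB signaling. The enzyme cGAS (Cgas) makes the second messenger cGAMP from DNA, and the adaptor STING (Sting1) binds it. STING then recruits the kinases TBK1 (Tbk1) and IKKε (Ikbke), and interferon-β (Ifnb1) is a classical target. TREX1 (Trex1) degrades cytosolic DNA before cGAS meets it, ENPP1 (Enpp1) hydrolyzes cGAMP outside the cell, and the folate carrier SLC19A1 (Slc19a1) and the volume-regulated anion channel subunit LRRC8A (Lrrc8a) move cyclic dinucleotides across the plasma membrane. These 9 genes were chosen by name for their place in this pathway, and all 9 were found among the 27525 genes of the table of normalized counts. Their transcript levels were followed in bulk RNA-seq of 32 subcutaneous mouse pancreatic tumors.

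Each of the 4 groups held 8 tumors, and each tumor was its own library. All tumors grew from KPC cells, a cell line made from a pancreatic tumor of a genetically engineered mouse that carried mutant Trp53 and Pdx1-Cre, injected under the skin of male C57BL/6NHsd mice of 8 to 10 weeks that were syngeneic with the cells. The tumors are thus transplants of 1 line outside the pancreas. Untreated tumors received no agonist. ADU-S100, a synthetic cyclic dinucleotide that activates STING, was injected once into the tumor at 2 µg on day 0. The agonistic antibody to the lymphotoxin-β receptor (anti-LTβR) was given into the peritoneum as 4 doses of 100 µg, and combination tumors received both agents on these schedules. All 32 tumors were taken on day 14, so the values describe the end of the treatment and not the first hours after the STING agonist. Another 20 libraries of a separate experiment in the same deposit entered no comparison. In bulk tumors, fewer cells of a type and less RNA per cell cannot be told apart.

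Recovered reads per library ran from 12762453 to 15591986, and 7 libraries lay under 14000000. The epithelial genes Krt8, Krt18, Krt19, Epcam and Cdh1 summed to between 6829 and 28939 normalized counts in every tumor, while the 3 measured acinar genes of the normal pancreas summed to at most 63.6. Host tissue was present in uneven amounts. The 5 skeletal muscle genes summed to a median of 8028 normalized counts in untreated tumors (range 5291 to 108242) and of 93021 in combination tumors (range 5895 to 329892), with medians of 73572 after ADU-S100 and 94306 after anti-LTβR, and none of the 5 passed the test in any comparison. Keratinocyte genes summed to between 1081 and 53108.

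Untreated tumors expressed the pathway from sensor to kinases. Per kb of exon, the level of Sting1 averaged 383 ± 47.2 normalized counts (SD, n = 8), Lrrc8a 349 ± 30.6 and Trex1 286 ± 64.7. Tbk1 stood at 128 ± 6.91, Ikbke at 58.6 ± 6.56, Enpp1 at 58.2 ± 9.31, Slc19a1 at 45.5 ± 4.45 and Cgas at 27.6 ± 4.34 on the same scale. The enzyme that makes cGAMP was thus measured at a far lower transcript level than the adaptor that binds it. Within the untreated group Sting1 and Lrrc8a could not be separated (Sting1 was higher in 5 of 8 tumors), nor could Ikbke and Enpp1 (Ikbke higher in 4 of 8). Per kb, Trex1 exceeded Tbk1, and Tbk1 exceeded Ikbke, in all 32 tumors. Both of these orders rest on the exonic lengths, which join all annotated exons of a gene (Trex1 1147, Tbk1 3910 and Ikbke 9018 bases). Without that division the untreated means were 328 normalized counts for Trex1, 500 for Tbk1 and 528 for Ikbke. In the group means the order of Lrrc8a and Trex1 was reversed in combination tumors and kept in the other groups. Lrrc8a exceeded Trex1 in 7 of 8 untreated, 8 of 8 ADU-S100, 3 of 8 anti-LTβR and 0 of 8 combination tumors. Exons of Trex1 and the neighboring gene Atrip overlap in the GENCODE annotation, so the reads of Trex1 may include some of Atrip.

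In the GENCODE annotation of GRCm38 the members lie apart from each other, none within another. Cgas lies at chr9:78430526-78443237 and Trex1 at chr9:109057933-109059734 (minus strand), Tbk1 at chr10:121546455-121586787 and Enpp1 at chr10:24637914-24712159 (minus strand), and Slc19a1 at chr10:77032241-77061002 (plus strand). Ikbke lies at chr1:131254343-131279606 and Ifnb1 at chr4:88522025-88522774 (minus strand), Lrrc8a at chr2:30237715-30263790 (plus strand), and Sting1 on chromosome 18. Exons of Gm8093 on the opposite strand overlap those of Cgas. Exons of Gm28035 on the same strand and of 1700084E18Rik on the opposite strand overlap those of Lrrc8a. The reads of Lrrc8a may thus include some of Gm28035. Col18a1 overlaps Slc19a1 outside its exons.

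**Figure D1:**
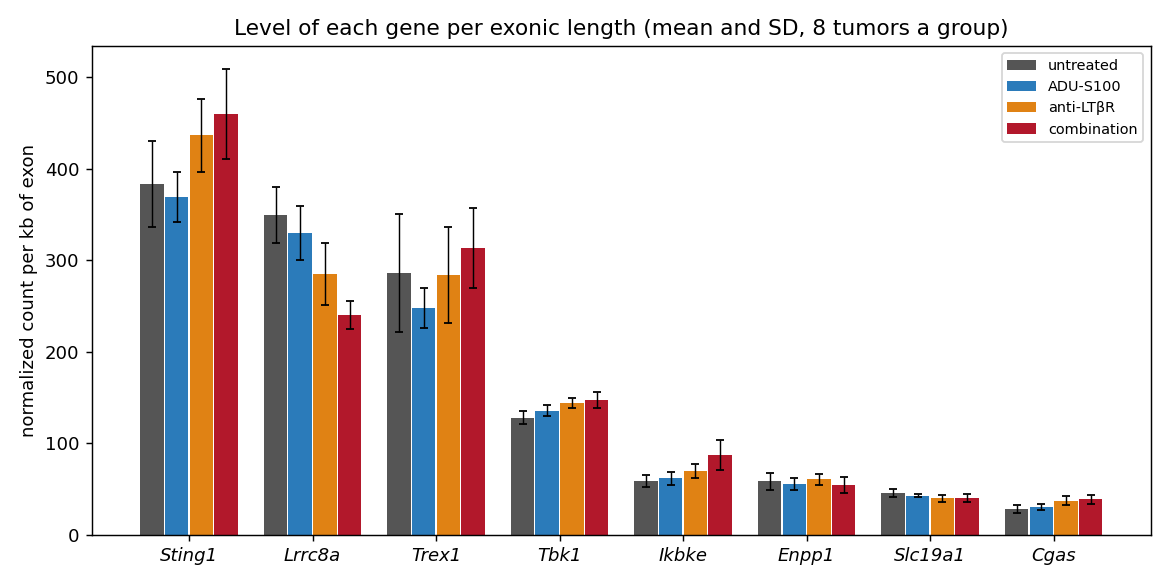
Level of 8 of the genes as normalized count per kb of exon (vertical axis), ordered by the untreated mean, with bars for the mean and whiskers for the SD of 8 tumors in each group. Sting1, Lrrc8a and Trex1 stand above the rest, and Lrrc8a is lowest in combination tumors (240 ± 15.1 per kb).

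In combination against untreated tumors, 8 of the 9 genes passed the filter on low values and 5 were called at an adjusted p below 0.05 in the limma test. Cgas, Sting1, Tbk1 and Ikbke were higher and Lrrc8a was lower. Over all 16909 genes tested, 19.6% were called higher and 23.6% lower, so calls of this kind were common in this comparison. The median log2 fold change of the 8 genes was 0.18, beside -0.02 over all genes tested. Changes were small: none of the 8 genes that passed the filter reached 2-fold in any comparison. Ifnb1, which did not pass it, is described apart. At an adjusted p below 0.05 with at least a 2-fold change, 6.12% of all genes were called in combination against untreated tumors, 0% in ADU-S100 and 1.04% in anti-LTβR against untreated tumors, 6.17% in combination against ADU-S100, 2.11% in combination against anti-LTβR and 0.601% in anti-LTβR against ADU-S100 tumors.

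**Figure D2:**
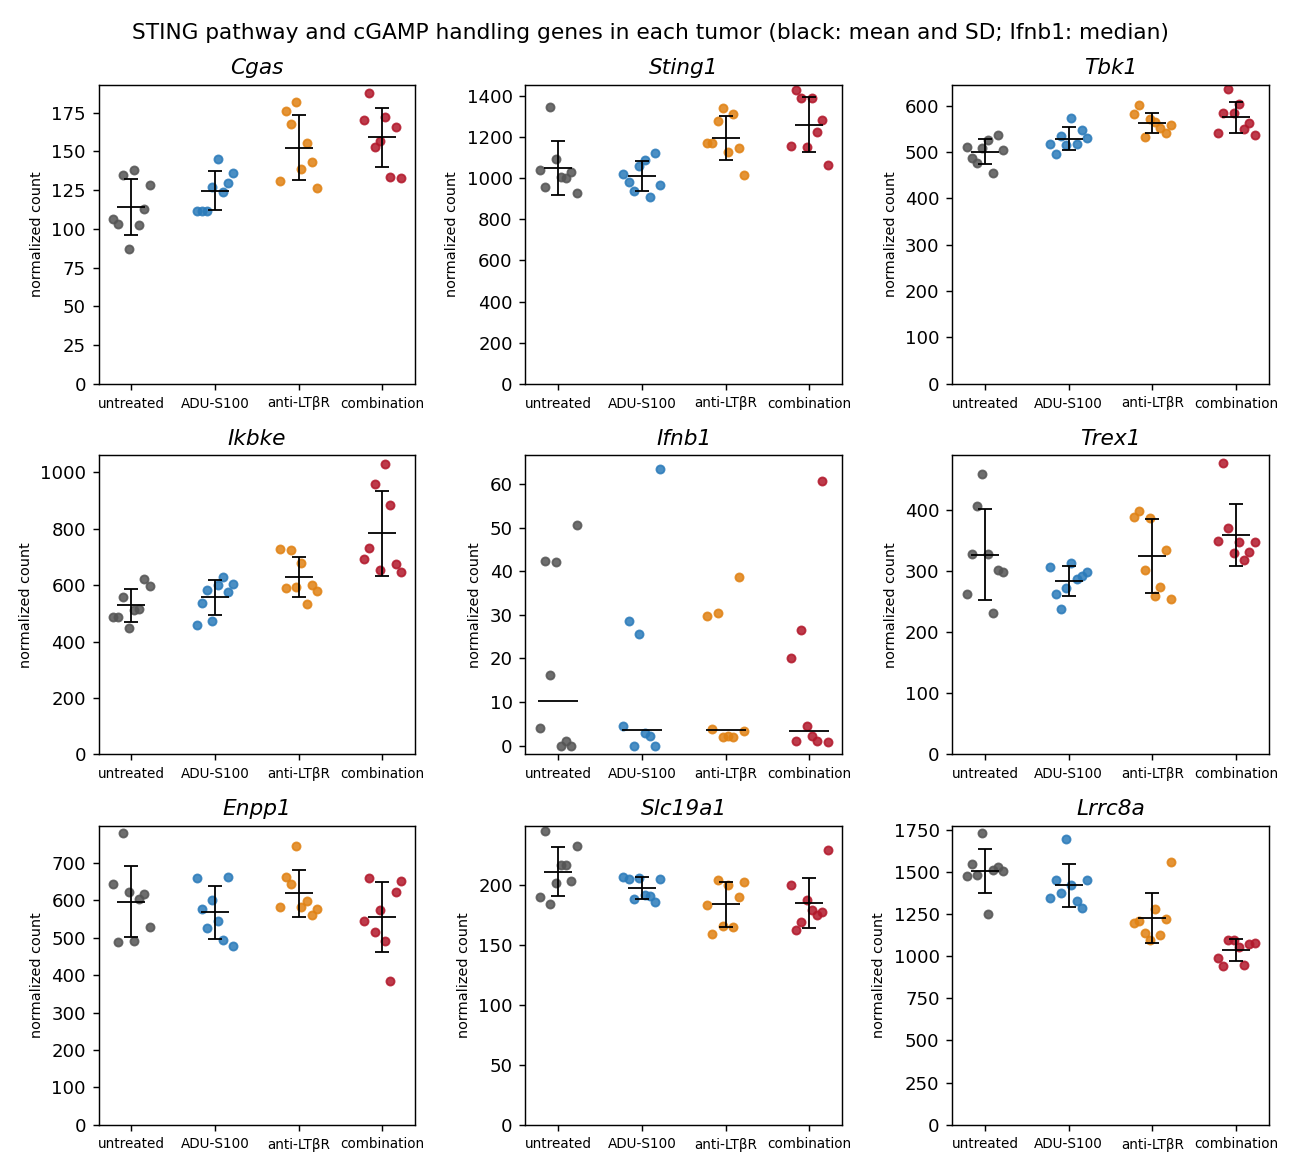
Normalized count of each of the 9 genes (vertical axes, linear) in each tumor by group, with 1 point per tumor and the mean and SD in black (the median for Ifnb1). Ikbke and Lrrc8a separate combination from untreated tumors without overlap, and Ifnb1 splits each group into high and low tumors.

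Cgas, the DNA sensor, had a median of 109 normalized counts in untreated tumors (lowest 87.1, highest 138), 126 after ADU-S100 (111 to 145), 149 after anti-LTβR (126 to 182) and 161 after both agents (133 to 188). Combination tumors lay above every untreated tumor in 6 of 8 cases, so the groups overlapped slightly. The log2 fold change was 0.48 ± 0.10 (SE) with a limma adjusted p of 0.00152 in combination against untreated tumors. Against untreated tumors, anti-LTβR alone gave 0.42 ± 0.11 (limma adjusted p = 0.0183), and this call was lost with the replicate block (log2 fold change 0.42, adjusted p = 0.0603) and with the summed muscle genes as a covariate (0.35, adjusted p = 0.0627). The difference between combination and anti-LTβR tumors was 0.06, with a 95% interval from -0.14 to 0.26.

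Sting1, the adaptor, had a median of 1017 normalized counts in untreated tumors (lowest 927, highest 1344), 1002 after ADU-S100 (910.3 to 1122), 1171 after anti-LTβR (1016 to 1341) and 1254 after both agents (1062 to 1427). The highest untreated value belonged to replicate 3, and only 3 combination tumors exceeded it. The log2 fold change against untreated tumors was 0.26 ± 0.08 in the combination (limma adjusted p = 0.0108), and among libraries above 14000000 reads it was 0.24 with an adjusted p of 0.0570. Against ADU-S100 tumors the combination gave 0.31 ± 0.06 (limma adjusted p = 0.000878), and 7 of 8 combination tumors exceeded the highest ADU-S100 tumor. Anti-LTβR alone differed from untreated tumors by 0.19 ± 0.07 (limma adjusted p = 0.0776). That value crossed the threshold without untreated replicate 3 (adjusted p = 0.0122), without anti-LTβR replicate 8 (adjusted p = 0.0436) and with the replicate block (adjusted p = 0.0453).

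Tbk1, the kinase that phosphorylates STING and IRF3, had a median of 506 normalized counts in untreated tumors (lowest 454, highest 538), 523 after ADU-S100 (495 to 573), 561 after anti-LTβR (532 to 600.1) and 572 after both agents (536 to 635). Of the 8 tumors in each group, 7 with anti-LTβR and 7 with the combination exceeded every untreated tumor. The log2 fold changes against untreated tumors were 0.17 ± 0.04 for anti-LTβR (limma adjusted p = 0.0153) and 0.20 ± 0.05 for the combination (limma adjusted p = 0.00287). Among libraries above 14000000 reads the anti-LTβR call was lost at a log2 fold change of 0.15 (adjusted p = 0.0585).

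Ikbke, the inducible relative of TBK1, rose most in the combination. It had a median of 513 normalized counts in untreated tumors (lowest 449, highest 620.0), 578 after ADU-S100 (459 to 629.6), 597 after anti-LTβR (533 to 727) and 711 after both agents (646 to 1031). All 8 combination tumors exceeded all 8 untreated and all 8 ADU-S100 tumors. Groups were separated in this way, in either direction, for 10.7% of all genes in combination against untreated tumors and for 12% in combination against ADU-S100 tumors. Against untreated tumors the combination gave a log2 fold change of 0.55 ± 0.10 (limma adjusted p = 0.000543), the largest positive change among the members here. Combination replicates 3, 5 and 6 held the 3 highest values, 958, 1031 and 885 normalized counts. For anti-LTβR alone the log2 fold change was 0.25 ± 0.08 (limma adjusted p = 0.0410). That call was lost without any 1 of untreated replicates 1, 2, 4, 5 and 6 or anti-LTβR replicates 1, 2, 3, 4, 5 and 7 (log2 fold change from 0.22 to 0.26, adjusted p from 0.0522 to 0.0796), without the filter (adjusted p = 0.0588), in the joint fit of all 4 groups (adjusted p = 0.0618), with the replicate block (adjusted p = 0.0667), by edgeR on library totals (adjusted p = 0.0666) and among libraries above 14000000 reads (adjusted p = 0.108). Predicted genes on the opposite strand (Gm28913 and Gm28914) overlap exons of Ikbke, and whether the counting used strand is not given in the sources used here.

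Lrrc8a, the obligatory subunit of the volume-regulated anion channel, was the 1 member called lower. It had a median of 1508 normalized counts in untreated tumors (lowest 1248, highest 1732), 1399 after ADU-S100 (1284 to 1695), 1202 after anti-LTβR (1095 to 1559.9) and 1063 after both agents (944 to 1097). All 8 combination tumors lay below all 8 untreated and all 8 ADU-S100 tumors. The log2 fold change against untreated tumors was -0.54 ± 0.06 in the combination (limma adjusted p = 1.11e-05), the smallest adjusted p among the members, and -0.30 ± 0.07 for anti-LTβR (limma adjusted p = 0.0130). Against anti-LTβR tumors the log2 fold change of the combination was -0.24 ± 0.06 (limma adjusted p = 0.0114), with 6 of 8 below every anti-LTβR tumor. Among libraries above 14000000 reads that last difference was -0.15 with an adjusted p of 0.0618. Anti-LTβR replicate 8 stood at 1559.9 normalized counts, apart from the other 7 tumors of its group.

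**Figure D3:**
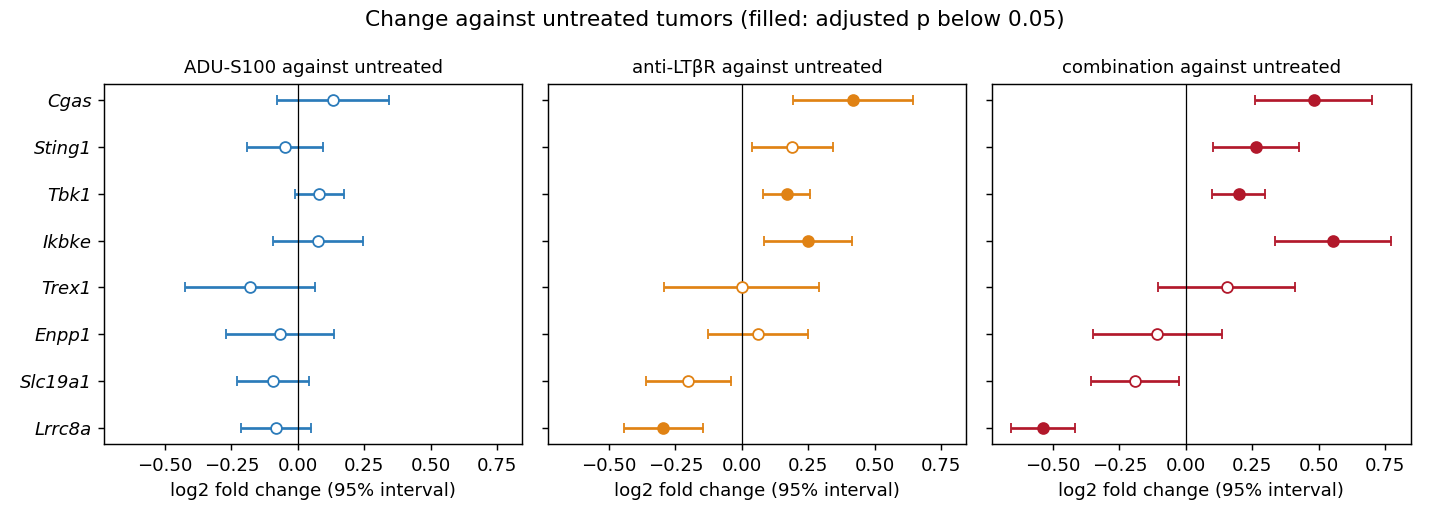
Log2 fold change against untreated tumors of the 8 genes that passed the filter (points) with 95% intervals (bars), in panels for ADU-S100, anti-LTβR and the combination. Filled points have an adjusted p below 0.05: 0 for ADU-S100, 4 for anti-LTβR and 5 when both agents were given.

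Slc19a1, the second carrier, and Enpp1, the extracellular hydrolase, did not pass the test in combination against untreated tumors. Slc19a1 had a median of 210.0 normalized counts in untreated tumors (lowest 184, highest 245), 198 after ADU-S100 (186 to 207), 187 after anti-LTβR (159 to 205) and 178 after both agents (163 to 229). Its log2 fold change was -0.19 ± 0.08 in the combination (limma adjusted p = 0.0583) and -0.20 ± 0.08 with anti-LTβR (limma adjusted p = 0.0789). The combination value crossed the threshold without combination replicate 8 (adjusted p = 0.0152), without untreated replicate 3 (adjusted p = 0.0352), in the joint fit of all 4 groups (adjusted p = 0.0216) and with the summed keratinocyte genes as a covariate (adjusted p = 0.0448). In the joint fit the anti-LTβR value crossed it too (adjusted p = 0.0393). Enpp1 had a median of 609.6 normalized counts in untreated tumors (lowest 489, highest 779), 559.96 after ADU-S100 (477 to 663), 589 after anti-LTβR (559.6 to 744) and 559 after both agents (383 to 660.1). Its log2 fold change in the combination was -0.11, with a 95% interval from -0.35 to 0.13. That interval does not reach a 2-fold change.

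Trex1, the exonuclease, had a median of 315 normalized counts in untreated tumors (lowest 232, highest 460.2), 289.9 after ADU-S100 (238 to 314), 319 after anti-LTβR (255 to 398) and 348 after both agents (318 to 478). All 8 combination tumors exceeded all 8 ADU-S100 tumors, and the log2 fold change between them was 0.33 ± 0.08 (limma adjusted p = 0.00259). Combination and untreated tumors overlapped, with a log2 fold change of 0.15 and a 95% interval from -0.11 to 0.41. Between ADU-S100 and untreated tumors it was -0.18 ± 0.12 (limma adjusted p = 0.444). Trex1 was not in the larger table, so its values were not tested on recovered reads.

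ADU-S100 alone left no member, and no gene of the table, past the threshold at day 14. The limma test called 0 of 16613 genes (0% higher and 0% lower), although 2408 had an unadjusted p below 0.05. None of the 8 members tested was among those 2408. The quasi-likelihood test of edgeR on recovered reads called 1 gene, DESeq2 39 and limma with the replicate block 2, none of them a member. The widest intervals for the members in this comparison were those of Trex1 (log2 fold change -0.42 to 0.06) and Cgas (-0.08 to 0.34), and the narrowest was that of Tbk1 (-0.01 to 0.17), so changes of 2-fold lay outside all 8 intervals.

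With anti-LTβR alone, 3 members were called higher (Cgas, Tbk1 and Ikbke) and 1 lower (Lrrc8a) of 8 tested, where 7.21% of 16691 genes were called higher and 8.1% lower. The median log2 fold change of the 8 was 0.12, beside 0.00 over all genes. In combination against ADU-S100 tumors 5 members were higher (Cgas, Sting1, Tbk1, Ikbke and Trex1) and Lrrc8a was lower, against 20.2% and 26% of 16811 genes. The Tbk1 call there (log2 fold change 0.12, limma adjusted p = 0.0301) was lost without ADU-S100 replicate 2 or 4 or combination replicate 3 or 5 (log2 fold change from 0.10 to 0.11, adjusted p from 0.0527 to 0.0631). It was also lost without the filter (0.12, adjusted p = 0.0559) and among libraries above 14000000 reads (0.11, adjusted p = 0.118). The Slc19a1 value of -0.10 (limma adjusted p = 0.232) crossed the threshold without combination replicate 8 (adjusted p = 0.0443). These comparisons share tumors, so their values are set side by side and not counted as separate evidence.

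In combination against anti-LTβR tumors Ikbke was higher (log2 fold change 0.31, limma adjusted p = 0.0393) and Lrrc8a lower, against 11.3% and 15.3% of 16932 genes. The Ikbke call was lost without any 1 of anti-LTβR replicates 2, 4, 6, 7 and 8 or combination replicates 3, 5 and 6 (log2 fold change from 0.25 to 0.30, adjusted p from 0.0646 to 0.0771). Among libraries above 14000000 reads the log2 fold change of Ikbke was 0.20 with an adjusted p of 0.241. In anti-LTβR against ADU-S100 tumors Sting1 was called higher (log2 fold change 0.24, limma adjusted p = 0.0252), against 3.38% of 16649 genes higher and 3.04% lower. That call was lost without ADU-S100 replicate 2, anti-LTβR replicate 4 or anti-LTβR replicate 6 (log2 fold change from 0.21 to 0.23, adjusted p from 0.0503 to 0.0559). It was also lost with the replicate block (0.24, adjusted p = 0.0661). Without anti-LTβR replicate 8 that comparison also called Cgas (adjusted p = 0.0351) and Lrrc8a (adjusted p = 0.0100), and without ADU-S100 replicate 7 Lrrc8a (adjusted p = 0.0487).

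Whether both agents together differed from the sum of their single effects was tested as an interaction on the log2 scale over all 32 tumors. None of the 9 members was called by limma, where 7.33% of 17649 genes were called positive and 11% negative. At an unadjusted p below 0.05 there was 1 member, Trex1, with an interaction of 0.33 ± 0.16 (limma adjusted p = 0.154). For Lrrc8a the interaction was -0.16 with a 95% interval from -0.34 to 0.03, and for Ikbke 0.23 with an interval from -0.04 to 0.50.

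Ifnb1, the interferon at the end of the pathway, behaved unlike the other members. It had a median of 10.1 normalized counts in untreated tumors (lowest 0, highest 50.6), 3.67 after ADU-S100 (0 to 63.4), 3.58 after anti-LTβR (1.92 to 38.6) and 3.37 after both agents (0.947 to 60.7). Values fell on both sides of an empty stretch: 13 tumors held 16.3 or more and 19 held 4.61 or less, with none between. Each group held both kinds, with 4 of 8 untreated tumors above the stretch and 3 of 8 in each of the other groups. The gene failed the filter in all 6 pairwise comparisons and was tested by the two-sided exact permutation test on log2(value + 1). The exact p ran from 0.724 to 0.974 over the 6 comparisons, and the Benjamini-Hochberg adjusted value was 0.974 in each, where the smallest p that 12870 splits allow is 0.000155. With values this split, 8 tumors a group give wide error: the interaction had a 95% interval from -2.89 to 2.97 on the log2 scale.

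The tumors with Ifnb1 shared replicate numbers of the labels within pairs of groups, and no number was high in all 4 groups. The numbers above the stretch were 2, 3, 4 and 8 in untreated tumors and 2, 4 and 8 in ADU-S100 tumors, and they were 1, 3 and 7 in both anti-LTβR and combination tumors. Numbers 5 and 6 were low in all 4 groups. Untreated replicate 3 was the lowest of the 13, at 16.3. The labels do not say what a shared number stands for. Over all genes the numbers did not pair the tumors by the criterion used, a strict one that asks for r over 0.1 in every same-numbered pair. Same-numbered tumors correlated by 0.19 on average in ADU-S100 and untreated tumors, beside -0.03 for other numbers. In combination and anti-LTβR tumors the averages were 0.17 and -0.03. What sets the tumors with Ifnb1 apart was not tested.

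The genes whose pattern over the 32 tumors was most like that of Ifnb1 were Ifnl3, Ifnl2 and Gm4468. Ifnl2 and Ifnl3, the mouse type III interferons, were listed at 0 in all 19 tumors with little Ifnb1. In the 13 tumors with Ifnb1 they ran up to 42.6 and 28.6 normalized counts, and only untreated replicate 3 was listed at 0 for both. Within those 13 tumors Pearson r with Ifnb1 on the log2 scale was 0.75 for each, a description of genes chosen for their likeness among 17649. Ifnl2 and Ifnl3 are near-identical copies, so their reads may be split between them. Gm4468 ran from 0.991 to 38.8 normalized counts in the 13 tumors and from 0 to 29.6 in the 19, so it did not separate them.

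**Figure D4:**
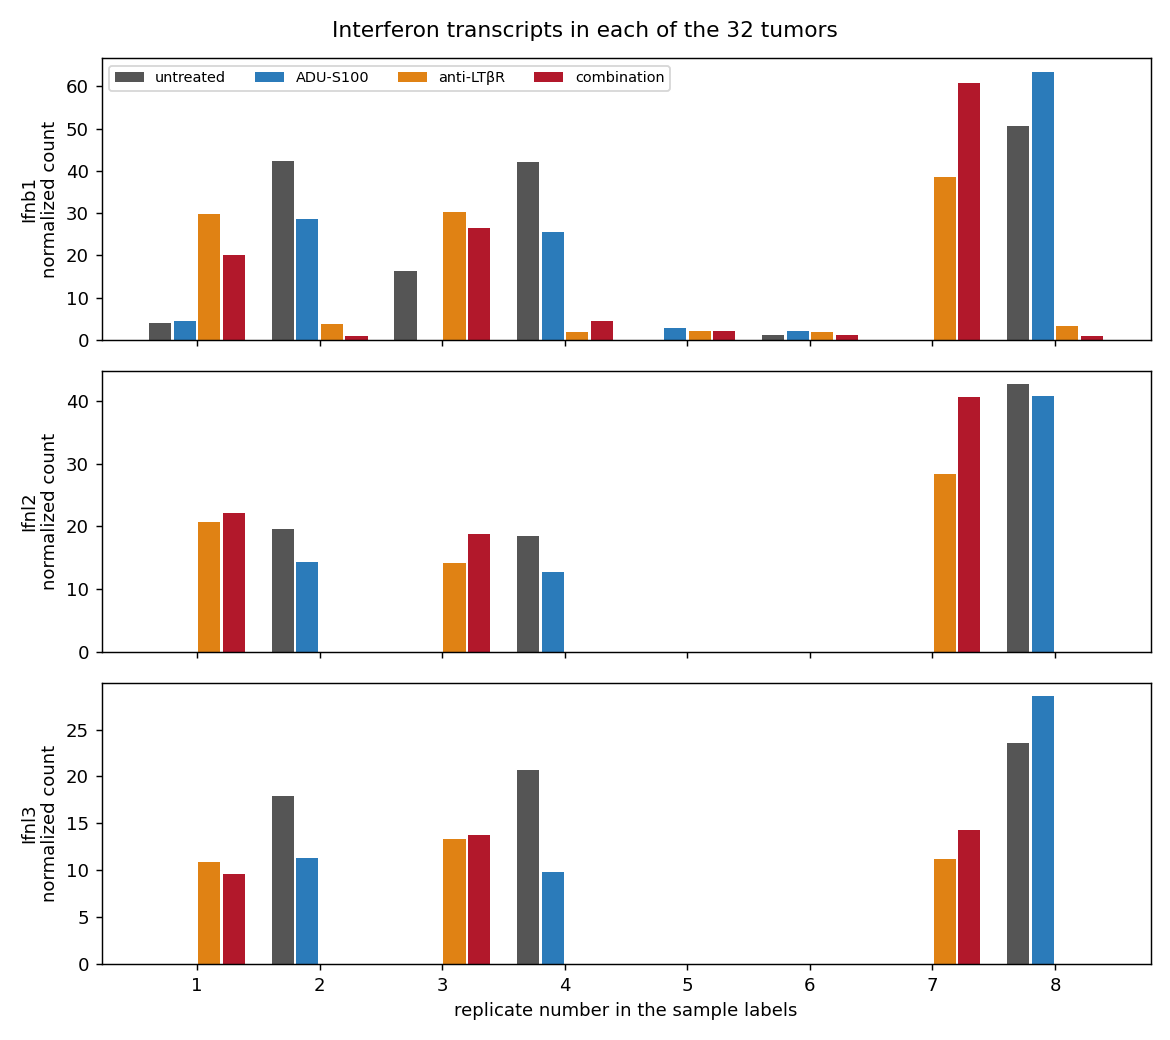
Normalized counts of Ifnb1, Ifnl2 and Ifnl3 (vertical axes, linear) in each of the 32 tumors, by the replicate number of the labels (horizontal axis) and group (color). Tall bars stand at numbers 2, 4 and 8 in untreated and ADU-S100 tumors and at 1, 3 and 7 in anti-LTβR and combination tumors, with untreated replicate 3 in addition for Ifnb1.

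The promoters of 4 of the 5 members called in combination against untreated tumors are shown because these genes passed the same test, and that of Ifnb1 beside them, chosen after its values were seen, as the classical target. The sequences come from the RefSeq promoter table (GRCm38.p6), 5′ to 3′ in the direction of transcription, and end at the RefSeq start or, for Ikbke and Lrrc8a, where the GENCODE gene begins. Capitals mark the match to the NF-kB consensus. The windows lie at chr9:78443238-78443487 (Cgas, minus strand), chr10:121586795-121587044 (Tbk1, minus strand), chr1:131279607-131279813 (Ikbke, minus strand), chr2:30237519-30237714 (Lrrc8a, plus strand) and chr4:88522795-88523044 (Ifnb1, minus strand).
Cgas: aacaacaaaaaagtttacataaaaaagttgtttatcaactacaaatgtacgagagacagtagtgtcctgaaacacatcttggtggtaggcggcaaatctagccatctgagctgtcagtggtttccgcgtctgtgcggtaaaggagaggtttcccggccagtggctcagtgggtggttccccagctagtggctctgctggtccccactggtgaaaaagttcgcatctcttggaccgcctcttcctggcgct
Tbk1: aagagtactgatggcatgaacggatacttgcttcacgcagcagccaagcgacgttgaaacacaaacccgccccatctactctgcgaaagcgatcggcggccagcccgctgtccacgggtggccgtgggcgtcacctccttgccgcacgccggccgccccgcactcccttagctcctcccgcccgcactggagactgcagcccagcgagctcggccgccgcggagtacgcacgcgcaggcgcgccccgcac
Ikbke: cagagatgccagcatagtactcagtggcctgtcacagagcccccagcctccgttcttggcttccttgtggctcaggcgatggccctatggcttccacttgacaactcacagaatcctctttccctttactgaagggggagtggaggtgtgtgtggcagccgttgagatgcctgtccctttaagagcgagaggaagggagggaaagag
Lrrc8a: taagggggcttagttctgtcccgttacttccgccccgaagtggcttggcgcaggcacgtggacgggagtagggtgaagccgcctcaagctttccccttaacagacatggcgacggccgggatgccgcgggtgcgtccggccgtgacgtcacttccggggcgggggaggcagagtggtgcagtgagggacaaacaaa
Ifnb1: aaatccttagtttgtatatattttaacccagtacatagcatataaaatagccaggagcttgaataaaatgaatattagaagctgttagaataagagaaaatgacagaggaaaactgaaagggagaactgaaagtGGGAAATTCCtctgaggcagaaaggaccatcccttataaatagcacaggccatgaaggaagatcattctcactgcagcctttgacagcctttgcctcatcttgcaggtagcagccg

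The 250 bases before the start were searched on both strands for the interferon-stimulated response element (ISRE, GAAANNGAAA), the gamma-activated site (GAS, TTCNNNGAA) and the NF-kB consensus by name. Over all 32851 entries of the table, 2.98% of windows held the ISRE letters, 7.02% the GAS letters and 7.25% the NF-kB consensus. In the 10 windows of the 8 members searched, the NF-kB consensus was found in Ifnb1 (116 to 107 bases before the start), Enpp1 (103 to 94 bases) and Trex1 (246 to 237 bases before 1 of 2 listed starts). Of the called members, Cgas, Tbk1, Ikbke and Lrrc8a held none of the 3 letter patterns in these windows, and the promoter of Sting1 was not searched or shown here.

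Genes with the most similar pattern to each other member were named by Pearson r over the 32 tumors on the log2 scale, as a description only, since the 32 tumors share the treatment groups. For Sting1 they were Ifi30 (0.89), Npc2 (0.88) and Cfb (0.88), the first a lysosomal thiol reductase and the second a lysosomal cholesterol carrier. For Ikbke they were Tcirg1 (0.92), Dennd1c (0.92) and Csf2rb (0.92), and for Cgas Fzd1 (0.88), H2-T24 (0.88) and Dclk1 (0.88). Lrrc8a ran with Mob3a (0.92), Sbds (0.92) and Dnaja1 (0.91). Trex1 ran with the interferon-induced gene Mx1 (0.80), with Daxx (0.77) and with Slfn2 (0.74). Enpp1 ran with Samd5 (0.83), Cip2a (0.79) and Lmnb1 (0.79), Tbk1 with Nos2 (0.79), Dsn1 (0.79) and AA414768 (0.78), and Slc19a1 with Ceacam1 (0.75), Pdxdc1 (0.74) and Cma2 (0.71). After the group means were removed, r for the first gene named was 0.79 for Sting1, 0.81 for Ikbke, 0.72 for Cgas and 0.72 for Lrrc8a, and it was 0.85 for Trex1, 0.83 for Enpp1 and 0.73 for Slc19a1. It was 0.40 for Tbk1 with Nos2, the lowest of these pairs. For other pairs r was 0.52 for Tbk1 with each of Dsn1 and AA414768, 0.56 for Slc19a1 with Cma2 and 0.61 for Lrrc8a with Dnaja1.

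Markers of other cell types moved in the same comparisons. In combination against untreated tumors, 5 of 5 endothelial genes, 5 of 5 fibroblast genes, 6 of 6 T cell genes, 4 of 6 macrophage genes, 4 of 5 dendritic cell genes, 3 of 4 B cell genes and the leukocyte gene Ptprc were called higher, and 3 of 5 epithelial genes lower. Of the neutrophil genes 1 of 4 was called higher, and none of the 4 keratinocyte, 3 adipocyte and 4 cycling genes was called. The endothelial sum ran from 1159.6 to 1739 normalized counts in untreated tumors, 933 to 1595 after ADU-S100, 1350.0 to 1888 after anti-LTβR and 2137 to 3038 after both agents. The fibroblast sum ran from 59973 to 96072 in untreated tumors, 41160 to 114828 after ADU-S100, 47618 to 100118 after anti-LTβR and 101303 to 369587 after both agents. The macrophage sum ran from 13481 to 24702 in untreated and 18160 to 27871 in combination tumors, and the T cell sum from 564 to 1459 and from 1196 to 2187. The epithelial sum ran from 15947 to 28939 in untreated and 6829 to 14654 in combination tumors, without overlap. Of all single genes tested, 10.7% did not overlap in that comparison. Within the epithelial list Epcam (log2 fold change 0.56) and Cdh1 (-0.27), at far lower counts than the 3 keratins, were not called. With anti-LTβR alone, 2 of 5 endothelial, 2 of 6 T cell, 2 of 6 macrophage, 2 of 5 dendritic cell, 1 of 4 B cell and 0 of 5 fibroblast genes were called higher, as were Ptprc and 1 of 4 cycling genes (Mki67), and 3 of 5 epithelial genes were called lower. Against ADU-S100 tumors the combination had 5 of 5 endothelial, 5 of 5 fibroblast, 6 of 6 macrophage, 6 of 6 T cell, 4 of 4 B cell, 4 of 5 dendritic cell and 1 of 4 neutrophil genes and Ptprc called higher and 3 of 5 epithelial genes lower. Against anti-LTβR tumors it had 5 of 5 endothelial, 5 of 5 fibroblast, 2 of 6 macrophage, 2 of 6 T cell and 1 of 4 neutrophil genes called higher and 3 of 5 epithelial genes lower. In anti-LTβR against ADU-S100 tumors 1 of 5 endothelial, 4 of 6 macrophage, 3 of 6 T cell, 1 of 4 B cell and 2 of 5 dendritic cell genes were called higher. No gene of these lists was at 0 in all tumors. Their part in the changes of the members was not tested. With the summed muscle genes as a covariate, a setting chosen after seeing the data, the same 5 members were called in combination against untreated tumors. That setting adjusts for none of the endothelial, fibroblast, immune or epithelial lists, and no muscle gene was itself called in any comparison.

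Other genes of the pathway were read from 6 lists, each described by its count and median. None of their genes was called in ADU-S100 against untreated tumors. The counts that follow stand beside 19.6% of all genes called higher and 23.6% lower in combination against untreated tumors. In combination against untreated tumors the list of cGAMP transport, hydrolysis and downstream products had 7 of 16 genes higher and 1 lower, with a median log2 fold change of 0.25 beside -0.02 over all genes. The largest calls were Smpdl3a (0.97 ± 0.12), a phosphodiesterase that can cleave cGAMP, P2rx7 (0.86 ± 0.13), an ATP-gated channel, and Entpd1 (0.84 ± 0.13), the CD39 ectonucleotidase, with limma adjusted p of 2.95e-05, 8.88e-05 and 0.000117. Slc46a3, a lysosomal transporter, Alpl, Abcc1 and Lrrc8c were the other genes called higher and Lrrc8d the 1 lower (-0.16, limma adjusted p = 0.0288). The partner subunits of LRRC8A had unequal values: Lrrc8c 0.19 (limma adjusted p = 0.0472), Lrrc8d as given, Lrrc8b -0.27 (limma adjusted p = 0.0956) and Lrrc8e 0.53 (limma adjusted p = 0.0610). These partner genes were singled out after their values were seen.

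Among nucleases and DNA sensors 8 of 18 genes were higher and 4 lower, with a median log2 fold change of 0.06. Pld3, a lysosomal exonuclease (0.77 ± 0.10), Aim2, the sensor of the DNA inflammasome (0.73 ± 0.10), and Dnase2a, the lysosomal DNase (0.46 ± 0.07), had the smallest adjusted p. Among STING transport, turnover and ubiquitin ligase genes 5 of 20 were higher and 3 lower (median -0.05), shares near those over all genes. The smallest adjusted p belonged to Nlrc3, a negative regulator of STING (0.87 ± 0.11), Npc1, a lysosomal cholesterol transporter (0.35 ± 0.07), and Rnf5, a ligase for STING (-0.23 ± 0.05). Among TBK1 adaptors and the IRF and NF-kB arm 6 of 18 were higher and 3 lower (median 0.03), beside 19.6% and 23.6% over all genes. The smallest adjusted p belonged to the TBK1-binding adaptor Tbkbp1 (0.89 ± 0.11), the NF-kB inhibitor Tnfaip3 (0.46 ± 0.09) and the transcription factor Irf5 (0.45 ± 0.10).

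Of 15 type I and III interferons and receptors, 9 were in the table and 5 passed the filter. The receptor chains Ifnar2 (0.40 ± 0.06), Il10rb (0.25 ± 0.08) and Ifnlr1 (0.78 ± 0.27) were called higher in combination against untreated tumors and none was lower. Of 12 interferon targets 3 were higher and none lower, with a median of 0.15. Ccl5, a T cell chemokine, rose by 1.80 ± 0.34 (limma adjusted p = 0.000510), from 373 to 1266 normalized counts in untreated tumors and from 717 to 4022 in combination tumors. Cxcl10 rose by 0.77 ± 0.22 (limma adjusted p = 0.00955) and Oasl2 by 0.25 ± 0.09 (limma adjusted p = 0.0437). The other 9 targets lay between -0.26 (Usp18) and 0.34 (Ifit2) and did not pass the test. With anti-LTβR alone 4 of the 12 were called higher, beside 7.21% of all genes in that comparison, with log2 fold changes of 0.94 (Ccl5), 0.61 (Cxcl10), 0.40 (Oasl2) and 0.54 (Ifit2).

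**Figure D5:**
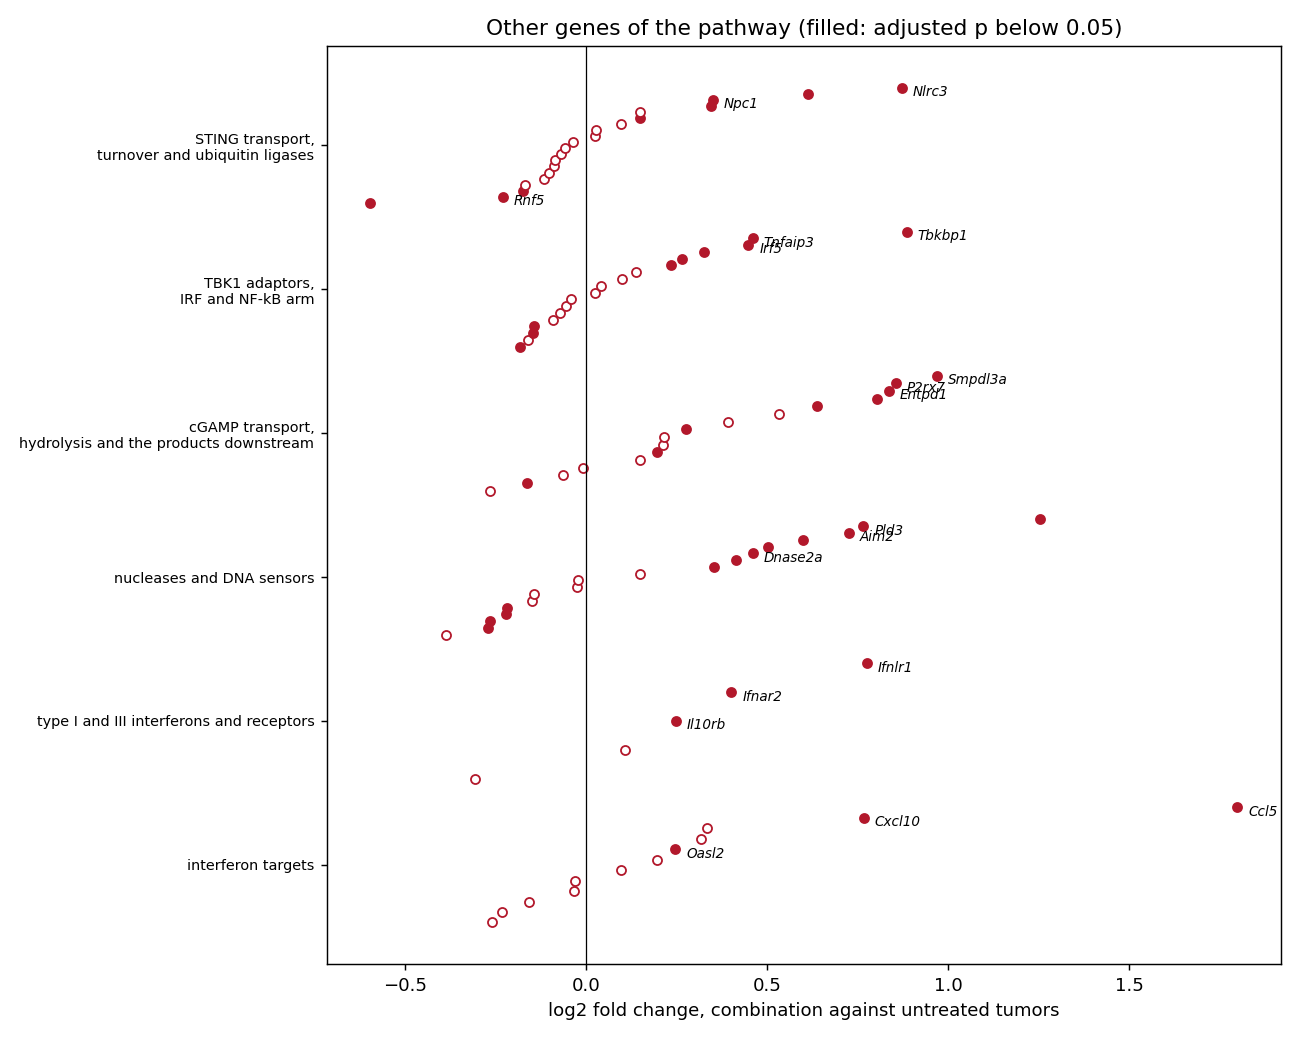
Log2 fold change between combination and untreated tumors (horizontal axis) of each tested gene of the 6 lists (rows), ordered within a list by its value, with the 3 genes of smallest adjusted p named. Filled points have an adjusted p below 0.05, and Ccl5 lies farthest to the right at 1.80.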

How the data were processed

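Total RNA of 32 KPC tumors was sequenced after poly(A) selection with a stranded kit. The values that the authors deposited for these 32 libraries are a signal: for each of 27525 genes, the reads scaled by the library's own size factor. A second deposited table of 27894 genes and 52 libraries holds a signal of the same kind, normalized over all its libraries. Each of its values is a whole multiple of what 1 read is worth (100% whole within 0.1 reads), so whole reads were recovered from it. In libraries whose step lies near 1 this cannot be told from rounding. The methods name HISAT2 and StringTie, the reporting summary STAR in Partek Flow, and the submitters' processing notes name both with cutadapt 1.9, FastQC, DESeq2 and edgeR. The sources do not settle which route gave which table. The authors also deposited their enrichment scores for gene sets, with p-values, which were not used. Per-sample columns left unused number 0.

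Groups come from the sample labels. The 15 libraries of the other experiment whose labels contradict each other and 5 labelled combination were left out of the comparisons. Low genes were removed with the filterByExpr rule (edgeR 4.0.16, minimum count 10). The trend test of limma 3.58.1 in R 4.3.3 was then run on log2(value + 1) over the 16 libraries of each comparison (all 32 for the interaction), with Benjamini-Hochberg adjustment over all genes tested and a threshold of 0.05. Fold changes on this scale understate the change of low genes. Ifnb1 failed the filter and was tested by two-sided exact permutation. Intervals are 95% intervals from the limma fit for the difference between group means or for the interaction. Their width comes from the spread between tumors. Each library is a separate tumor.

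The replicate numbers of the labels do not pair the tumors by the criterion used, which asks for a correlation over 0.1 in every same-numbered pair. Alternatives were a pseudocount of 0.5, other filters, a joint fit, the replicate block, edgeR and DESeq2 1.42.0 on recovered reads, a 2-fold rule, only libraries above 14000000 reads and leaving out each library. The covariates of muscle and keratinocyte genes were added after seeing the data. On simulated data the limma script was tested before use. Named genes are the members, from each list the 3 genes with the smallest adjusted p in combination against untreated tumors, and for each member the 3 genes of highest Pearson r. The members, lists and tests were chosen with earlier results of these data known. Promoters were read from a RefSeq table on GRCm38.p6 by symbol, which matched all 8 members searched. Exonic lengths and positions come from GENCODE M21 on GRCm38, matched by gene identifier, since the deposited coordinates are of another build. Proteins were not used here. Part of the genotype of the cell line is not reported here.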

Additional observations from a re-analysis of the deposited data

Results flagged for a closer look

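In 6 of the 36 member and group combinations, 1 tumor stood apart from the other 7 of its group by Dixon's criterion, in which the gap to the nearest tumor is divided by the range of the group, at the 95% level. Chance alone flags about 1 in 20 groups. Untreated replicate 3 held 1344 normalized counts of Sting1 (gap share 0.597). Combination replicate 2 held 478 normalized counts of Trex1 (gap share 0.667). ADU-S100 replicate 4 held 1695 normalized counts of Lrrc8a (gap share 0.594), and anti-LTβR replicate 8 held 1559.9 (gap share 0.599). For Ifnb1, ADU-S100 replicate 8 held 63.4 normalized counts (gap share 0.549) and combination replicate 7 held 60.7 (gap share 0.571). Without untreated replicate 3, Sting1 crossed the threshold in anti-LTβR against untreated tumors (adjusted p = 0.0122 by limma), and without anti-LTβR replicate 8 Lrrc8a crossed it in anti-LTβR against ADU-S100 tumors (adjusted p = 0.0100 by limma).

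In data outside the comparisons, the 20 libraries of the other experiment held between 0 and 14 recovered reads of Ifnb1 (median 5.5), and the 5 of them labelled combination between 6 and 12. The 32 libraries analysed held between 0 and 64. In these 20 libraries no tumor reached the upper read numbers of the analysed tumors. Reads were not scaled for depth here, and the depth of the 20 libraries is not given. The 6 to 12 reads lie between 4.61 and 16.3, the normalized counts that bound the empty stretch in the analysed tumors. What separates the experiments was not tested.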

How the results depend on the processing

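Of 1359 values of a member under the alternative settings other than the 2-fold rule, 1301 kept their side of the threshold, 43 lost a call and 15 gained one, and no called value changed direction. Under the 2-fold rule the count of members called was 0 in combination against untreated, anti-LTβR against untreated, combination against ADU-S100, combination against anti-LTβR and anti-LTβR against ADU-S100 tumors. Among libraries above 14000000 reads the counts were 4 in combination against untreated tumors (without Sting1), 5 in combination against ADU-S100 (without Tbk1), 2 (Cgas and Lrrc8a) in anti-LTβR against untreated tumors, 0 in combination against anti-LTβR and 2 in anti-LTβR against ADU-S100 tumors. That setting leaves out 7 libraries, among them combination replicates 5 and 6 and anti-LTβR replicate 8, and fewer tumors a group reduce the power of the test. In combination against anti-LTβR tumors the log2 fold changes were smaller as well. They were 0.20 for Ikbke and -0.15 for Lrrc8a, beside 0.31 and -0.24 over all libraries. What led to the lost calls was not tested. In combination against anti-LTβR tumors the count was 1 without a filter and 1 with the keratinocyte covariate, each time without Ikbke, whose log2 fold change was 0.31 (adjusted p = 0.0561) and 0.30 (adjusted p = 0.0611) beside 0.31 as reported. In anti-LTβR against ADU-S100 tumors it was 0 in the joint fit, 0 with the replicate block and 3 by DESeq2, and the cause was not tested. Leaving out each library in turn gave counts of 5 to 6 in combination against untreated tumors, 3 to 5 in anti-LTβR against untreated, 5 to 7 in combination against ADU-S100, 1 to 2 in combination against anti-LTβR, 0 to 3 in anti-LTβR against ADU-S100 and always 0 in ADU-S100 against untreated tumors.

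With the replicate block 5 members were called in combination against untreated tumors, 3 in anti-LTβR against untreated, 6 in combination against ADU-S100, 2 in combination against anti-LTβR and 0 in ADU-S100 against untreated tumors, and 0 had an interaction. Same-numbered tumors correlated in their deviations from the group means by 0.19 on average in ADU-S100 and untreated tumors (6 of 8 pairs over 0.1) and by 0.17 in combination and anti-LTβR tumors (5 of 8 pairs). In the other 4 pairings of groups the average ran from -0.09 to 0.02. Over all genes the block moved the calls from 2555 to 1660 in anti-LTβR against untreated tumors and from 1069 to 445 in anti-LTβR against ADU-S100 tumors. Tumors correlated best with their own number in at most 3 of 8 cases.

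For Ifnb1, leaving out each library gave log2 differences from -0.67 to 0.16 in combination against untreated tumors. They ran from -0.77 to 0.09 in ADU-S100 against untreated and from -0.05 to 0.81 in anti-LTβR against ADU-S100 tumors. Over all pairwise comparisons 0 of the settings reached a p below 0.05. At 0 to 64 reads per tumor, counting error is large for Ifnb1, Ifnl2 and Ifnl3. It also forms part of the spread of the less abundant of the other members, such as Cgas and Slc19a1.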
